A study of Mus musculus with 12 samples.

Results

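The genes described are 9 members of the activity-dependent circuit of skeletal muscle, namely the histone deacetylases Hdac4, Hdac5 and Hdac9, the corepressor Dach2, the transcription factor Runx1, the growth-arrest genes Gadd45a, Gadd45b and Gadd45g, and the cell cycle inhibitor Cdkn1a. They were taken by symbol, and 9 of 9 were found among the 25094 genes listed for each strain. Class IIa histone deacetylases shuttle between nucleus and cytoplasm. In the nucleus they bind MEF2 transcription factors and repress MEF2 target genes, and phosphorylation by calcium-dependent kinases moves them out. In innervated muscle, nerve activity is known to hold Hdac4 low and Dach2 high, and Dach2 represses myogenin. When the nerve is lost, Hdac4 is known to be induced and to repress Dach2, and Gadd45a has been placed downstream of Hdac4 in the atrophy programme of the muscle fibre. Runx1 is known to be induced by denervation and to limit the wasting of denervated fibres.

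The libraries hold polyadenylated RNA of a calf muscle, the gastrocnemius, from wild-type males of inbred C57BL/6 and BALB/c mice. The sciatic nerve of the right leg had been severed 2 weeks earlier and its stumps folded back and stitched to neighbouring muscle. The 4 groups were the left and the right legs of each strain, with 3 libraries in each (12 in all). Left legs are labelled as healthy. A sham operation also appears in the protocol, without a label that ties it to any leg. Ages are not given, and no label states that libraries of a group are from different mice, so p-values measure the spread between these samples alone, which may be technical. The series was designed around the α7 nicotinic acetylcholine receptor in denervated muscle.

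Values are RPKM, which divides reads by transcript length and library total, so they can be compared between genes. Scaling totals ran from 18132620 to 19282880 reads per library. Levels are given ± SD (3 libraries). A change is the right leg minus the left on the scale log2(RPKM + 0.5), ± SE. This scale understates the change of genes near or below 0.5 RPKM. Genes whose mean in a strain reached 0.1 RPKM were tested with limma, and a gene was called at a Benjamini-Hochberg adjusted p under 0.05. Most genes were higher in the right legs, since the median of all tested genes was 0.52 higher in C57BL/6 and 0.38 higher in BALB/c. Relative changes have that median subtracted. Rescaling by median-of-ratios factors brought the medians to 0.02 in both strains. Libraries of a group resembled each other, with a mean correlation across genes of 0.980 to 0.991 with the other libraries of the own group. The right libraries of BALB/c differed in summed erythroid markers, with 12470, 27119 and 399 RPKM, and its left libraries had 1308, 1848 and 239 RPKM. Right library 2 was also the highest right library in neutrophil and lymphocyte markers. The BALB/c changes of Hdac5 and Gadd45g are therefore also given without it.

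The promoters are shown because Hdac4, Runx1, Gadd45a and Cdkn1a moved together in one direction and Hdac9, Gadd45b and Gadd45g in the other. Promoter sequences from RefSeq (GRCm38.p6) matched 9 of 9 genes with 13 promoters. Each window of 300 bases, 250 before and 50 after the start, was searched on both strands for the E-box CAGCTG that myogenic factors bind, the Runx motif TGTGGT, the AP-1 motif TGANTCA, the CRE motif TGACGTCA and the MEF2 consensus. The 250 bases before the start are printed for 4 genes, Gadd45a, which rose, and Hdac5, Hdac9 and Gadd45g, which fell, Hdac5 without a call in BALB/c. These stretches are printed 5′ to 3′, with matches in capitals. They lie at chr11:102230173-102230422 for Hdac5, chr12:34528890-34529139 for Hdac9, chr6:67037408-67037657 for Gadd45a (these 3 on the minus strand) and chr13:51846425-51846674 for Gadd45g (plus strand). Of the 2 Hdac9 promoters, the one printed starts 15 bases from the transcript that was counted. For Runx1, whose window is chr16:92826025-92826324 on the minus strand, 22 bases after the start are printed because they hold a pair of Runx motifs.
Hdac5: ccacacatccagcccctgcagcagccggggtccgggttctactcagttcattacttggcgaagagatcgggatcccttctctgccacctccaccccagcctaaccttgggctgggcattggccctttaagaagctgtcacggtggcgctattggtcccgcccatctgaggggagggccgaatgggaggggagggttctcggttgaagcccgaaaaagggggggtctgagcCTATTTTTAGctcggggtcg
Hdac9: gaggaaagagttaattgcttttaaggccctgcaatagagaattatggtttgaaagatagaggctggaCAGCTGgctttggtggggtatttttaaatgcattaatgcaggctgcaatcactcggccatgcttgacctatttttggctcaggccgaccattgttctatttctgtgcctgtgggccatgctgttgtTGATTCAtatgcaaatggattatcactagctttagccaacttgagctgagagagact
Gadd45a: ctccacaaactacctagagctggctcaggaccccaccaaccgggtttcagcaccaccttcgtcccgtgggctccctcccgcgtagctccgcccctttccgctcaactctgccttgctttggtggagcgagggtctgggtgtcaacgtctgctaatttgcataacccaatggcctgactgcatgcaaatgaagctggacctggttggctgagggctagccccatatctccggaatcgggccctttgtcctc
Gadd45g: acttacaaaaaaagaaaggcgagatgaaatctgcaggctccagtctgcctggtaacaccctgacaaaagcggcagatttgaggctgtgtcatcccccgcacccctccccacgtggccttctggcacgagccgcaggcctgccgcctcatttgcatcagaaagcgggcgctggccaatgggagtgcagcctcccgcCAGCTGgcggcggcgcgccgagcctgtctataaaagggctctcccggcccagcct
Runx1: aacaACCACAgaACCACAagtt

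Counted to the first base of a match, the MEF2 consensus lay 20 bases before the start of Hdac5, an E-box 183 and an AP-1 motif 57 bases before that of Hdac9, and an E-box 55 bases before that of Gadd45g. The Runx motifs of Runx1, read here as ACCACA on the other strand, began at bases 29 and 37 after the start of its window's promoter. That start lies 75 bases from the start of the counted Runx1 transcript. The other Runx1 promoter held none of the 5 motifs. Neither the printed Gadd45a promoter nor the windows of Hdac4, Gadd45b and the counted Cdkn1a transcript held any of the 5 motifs. The other Hdac9 promoter held an E-box 89 bases before its start. A Runx motif lay 60 bases before the start of 1 Dach2 promoter, and an E-box began at base 38 after that of the other Cdkn1a promoter. Of 32851 RefSeq promoters of the same length, 16.3% held the E-box, 16.8% the Runx motif, 7.81% the AP-1 motif, 1.79% the CRE motif and 3.19% the MEF2 consensus. A match describes letters in a window and is not evidence of binding.

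Across the set, the right legs held much more Hdac4, Runx1, Gadd45a and Cdkn1a and less Hdac9, Gadd45b and Gadd45g, in both strains. In C57BL/6, 4 of the 8 tested members rose and 4 fell. Over all 14551 tested genes of that strain, 63.6% were called higher and 8.56% lower, 72.2% in all. In BALB/c, 4 rose, 3 fell and Hdac5 was not called, where 42.5% of 14819 genes were called higher and 7.67% lower, 50.2% in all. Over all genes, calls of higher levels thus outnumbered calls of lower levels in both strains. After median-of-ratios rescaling the members divided 4 higher and 4 lower in both strains, against 28.2% and 26.4% of genes in C57BL/6 and 21.8% and 19% in BALB/c. The median change of the 8 members was 1.05 in C57BL/6 and 1.14 in BALB/c, beside 0.52 and 0.38 for all tested genes. Ranked by the log2 change, Cdkn1a was the 15th, Gadd45a the 25th, Runx1 the 38th and Hdac4 the 336th highest of 14551 genes in C57BL/6. In BALB/c, Gadd45a ranked 11, Cdkn1a 24, Runx1 28 and Hdac4 231 of 14819. By ratio of means, Runx1 came first of these 4 in each strain, at 142 in C57BL/6 and 127 in BALB/c. From the lower end, Gadd45g ranked 85 in C57BL/6 and 147 in BALB/c.

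**Figure D1:**
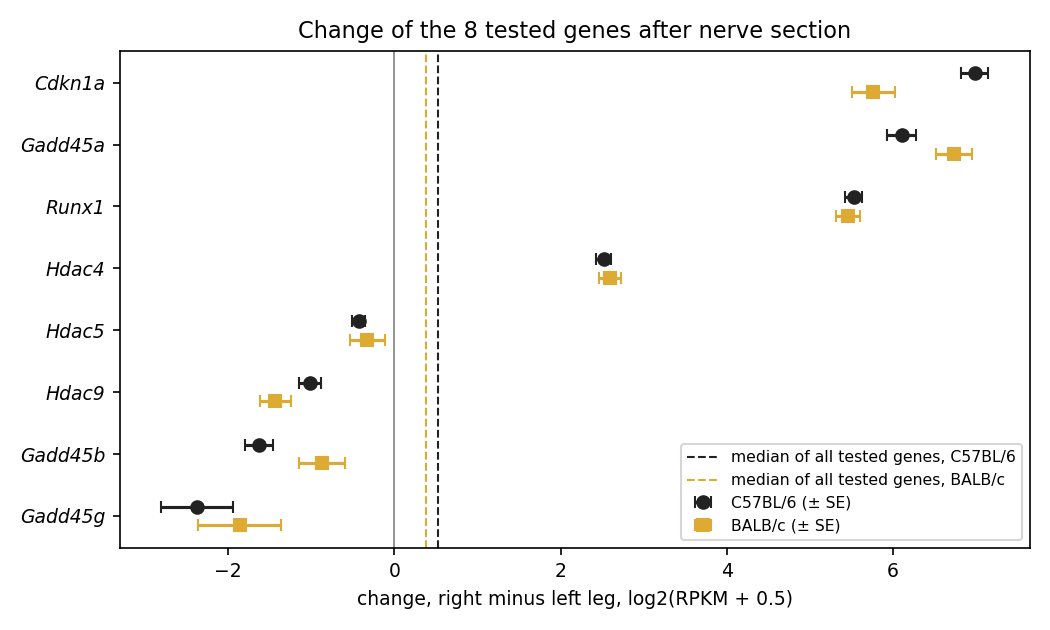
Change of the 8 tested genes, right minus left leg, on the log2(RPKM + 0.5) axis (points with SE, 3 libraries per leg), for C57BL/6 (circles) and BALB/c (squares); dashed lines mark the median of all tested genes. Cdkn1a, Gadd45a, Runx1 and Hdac4 lie right of both medians, and Hdac5, Hdac9, Gadd45b and Gadd45g left of 0.

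Hdac4, the class IIa deacetylase that couples loss of nerve activity to the muscle genome, rose 6.58-fold in C57BL/6 and 6.83-fold in BALB/c. Its transcript (NM_207225; mm9 chromosome 1, 93825356 to 94076918, minus strand) stood at 3.06, 2.76 and 2.53 RPKM in the left and 19.4, 18.4 and 17.2 RPKM in the right legs of C57BL/6. The legs were far apart and the right libraries close together. The means were 2.78 ± 0.262 and 18.3 ± 1.09 RPKM (log2 change 2.52 ± 0.09, relative 2.0, adjusted p = 1.15e-06). In BALB/c, Hdac4 had 2.82, 3.55 and 3.04 RPKM in the left and 21.4, 21.4 and 21.5 RPKM in the right legs. Here too the legs were far apart (log2 change 2.60 ± 0.13, relative 2.22, adjusted p = 1.28e-05).

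Hdac5, its close relative, went the other way. Its fall was called in C57BL/6 and not in BALB/c, and the difference between the strains was not called either (adjusted p = 0.809). Hdac5 (NM_001077696; mm9 chromosome 11, 102057061 to 102091486) had 17.8, 17.1 and 15.2 RPKM in the left and 12.3, 12.4 and 12.2 RPKM in the right legs of C57BL/6. No right library reached the lowest left one (log2 change -0.43 ± 0.08, relative -0.95, adjusted p = 0.00167). In BALB/c the levels were 20.8, 28.1 and 22.3 RPKM in the left and 22.8, 13.9 and 20.6 RPKM in the right legs, which overlapped. The change was -0.32 ± 0.21 (relative -0.70, adjusted p = 0.232), and -0.11 without right library 2, the one at 13.9 RPKM. It was called after median-of-ratios rescaling, at -0.84 (adjusted p = 0.00526). The change of Hdac5 was thus below that of the median gene in both strains, and whether BALB/c is called rests on the scaling. The small RNA gene Mir8101 lies within Hdac5 and had at most 2 reads over the 3 libraries of a leg.

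Hdac9, which also encodes a short form without the deacetylase domain that represses MEF2, fell in both strains from an already low level. Hdac9 (NM_024124; mm9 chromosome 12, 35056362 to 35213754) had 1.48, 1.50 and 1.14 RPKM in the left and 0.427, 0.537 and 0.322 RPKM in the right legs of C57BL/6. It had 1.17, 2.05 and 1.60 RPKM in the left and 0.342, 0.234 and 0.235 RPKM in the right legs of BALB/c. The legs did not overlap in either strain. The left mean exceeded the right one 3.21-fold in C57BL/6 (log2 change -1.01 ± 0.13, relative -1.54, adjusted p = 2.93e-04) and 5.93-fold in BALB/c (log2 change -1.43 ± 0.19, relative -1.81, adjusted p = 5.02e-04). Only the exons of this 1 transcript were counted, and the other Hdac9 promoter starts 388221 bases from its start. Forms that share these exons were not separated, and exons outside this transcript were not counted.

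These opposite movements changed which class IIa deacetylase transcript was the most abundant. In the left legs Hdac5 exceeded Hdac4 in every library, 5.83- to 6.17-fold in C57BL/6 and 7.33- to 7.90-fold in BALB/c. In the right legs of C57BL/6, Hdac4 exceeded Hdac5 1.41- to 1.58-fold. In the right legs of BALB/c the libraries differed, with Hdac4 over Hdac5 at 0.938, 1.54 and 1.05. Of the summed RPKM of Hdac4, Hdac5, Hdac7 and Hdac9, Hdac4 made up 11.2% ± 0.221 in the left and 52.0% ± 2.32 in the right legs of C57BL/6. The same share was 8.63% ± 0.763 and 46.0% ± 6.04 in BALB/c. The sum itself was 24.8 ± 1.89 and 35.2 ± 1.14 RPKM in C57BL/6 and 36.8 ± 7.80 and 47.1 ± 5.97 RPKM in BALB/c. Hdac7, the remaining gene of the class, was not called in either strain as deposited and was called lower in both after rescaling.

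**Figure D2:**
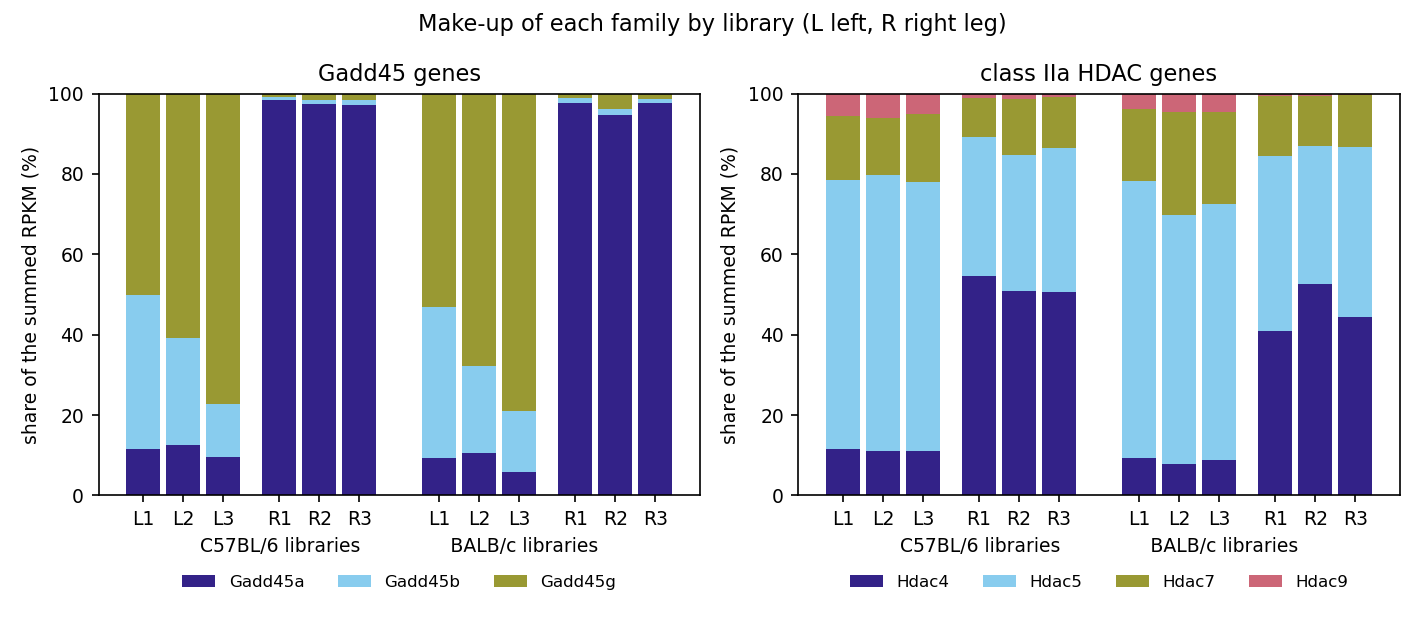
Share (%) of each gene in the summed RPKM of the Gadd45 genes (left panel) and of the class IIa HDAC genes (right panel), 1 stacked bar per library (L left leg, R right leg). Gadd45a takes 9.46% to 12.6% of the Gadd45 sum in the left and 97.2% to 98.3% in the right legs of C57BL/6, and Hdac4 rises from 11.1% to 11.5% to 50.6% to 54.7% of the HDAC sum.

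Dach2, the corepressor that links Hdac4 to myogenin, was barely detected in any leg. Dach2 (mm9 chromosome X, ending at 110948700) was seen with 1, 4 and 4 reads in left and 1, 0 and 0 reads in right legs of C57BL/6, and with 4, 4 and 1 left and 0, 3 and 0 right reads in BALB/c. In these libraries 3 reads were worth 0.0260 to 0.0281 RPKM, a level that 4 of 6 left and 0 of 6 right libraries exceeded. The ratio of right to left, from 9 and 1 reads, was 0.110 in C57BL/6 (exact 95% interval 0.00251 to 0.794) and, from 9 and 3 reads, 0.322 in BALB/c (0.0561 to 1.29). These intervals cover counting error only. Exact two-sided permutation tests gave p = 0.2 in each strain, where 0.1 is the smallest that 3 against 3 libraries allow. Dach2 lay under the filter of the limma test. In counting terms alone, the interval excluded equal levels of the legs in C57BL/6 and included them in BALB/c. The permutation tests had too few libraries to decide whether the legs differed beyond the spread between libraries. The 2 strain tables list different transcripts for it (NM_001289733 and NM_001142570).

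Runx1, the transcription factor that sustains denervated fibres, was close to silent in the left legs and abundant in the right. Runx1 (NM_001111022; mm9 chromosome 16, 92601711 to 92826319) had 0.264, 0.258 and 0.181 RPKM in the left and 35.3, 29.6 and 35.1 RPKM in the right legs of C57BL/6. In BALB/c it had 0.255, 0.257 and 0.270 RPKM in the left and 29.5, 33.4 and 36.3 RPKM in the right legs. The legs were far apart in both strains, and the strains, though scaled separately, overlapped within each leg. The ratio of means was 142 in C57BL/6 (log2 change 5.52 ± 0.10, adjusted p = 1.66e-07) and 127 in BALB/c (log2 change 5.46 ± 0.14, relative 5.08, adjusted p = 1.60e-06).

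The Gadd45 genes encode small proteins that bind stress-pathway kinases and cell cycle regulators. They moved in opposite directions: Gadd45a rose to one of the most abundant transcripts of the muscle while Gadd45b and Gadd45g fell. Gadd45a (NM_007836; mm9 chromosome 6, 66985090 to 66987401, minus strand) had 8.48, 10.95 and 14.7 RPKM in the left and 795, 775 and 826 RPKM in the right legs of C57BL/6. In BALB/c it had 6.25, 8.83 and 5.35 RPKM in the left and 601, 837 and 880 RPKM in the right legs. Among the 25094 listed genes Gadd45a moved from the 2928th to the 65th highest level in C57BL/6 and from the 4618th to the 76th in BALB/c. The ratio of means was 70.1 in C57BL/6 (log2 change 6.10 ± 0.18, adjusted p = 5.96e-07) and 113 in BALB/c (log2 change 6.73 ± 0.22, relative 6.36, adjusted p = 2.11e-06).

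An opposite-strand gene, E230016M11Rik (NR_040278; mm9 chromosome 6, 66986593 to 67030646), begins within Gadd45a and shares 809 bases of its span of 2312 bases, at its 5′ end. E230016M11Rik went from 1.95 ± 0.595 RPKM (left) to 115 ± 11.1 RPKM (right) in C57BL/6, and from 1.39 ± 0.602 to 118 ± 18.8 RPKM in BALB/c. Strand was not used in counting, so reads of the shared stretch cannot be told apart.

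Gadd45b, the family member induced by cytokines and growth factors in many cells, fell in both strains. Gadd45b (NM_008655; mm9 chromosome 10, 80392836 to 80394949) had 27.8, 23.1 and 20.8 RPKM in the left and 5.94, 7.15 and 9.27 RPKM in the right legs of C57BL/6, with no overlap. The log2 change was -1.63 ± 0.17 (relative -2.15, adjusted p = 9.44e-05). In BALB/c the left legs had 25.2, 18.1 and 14.0 RPKM and the right legs 7.23, 14.1 and 9.59 RPKM, so that 1 right library just exceeded the lowest left one. The log2 change was -0.87 ± 0.28 (relative -1.24, adjusted p = 0.0313). That call was lost in 5 of 18 alternatives (adjusted p up to 0.147): with no filter on low values and without left library 1 (-0.65), left library 2 (-0.88), right library 1 (-0.65) or right library 3 (-0.84).

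Gadd45g was the most abundant Gadd45 gene of the left legs and had the largest SE among the 8 tested changes. Gadd45g (NM_011817; mm9 chromosome 13, 51942044 to 51943843) had 36.7, 53.1 and 120 RPKM in the left and 7.75, 13.4 and 14.7 RPKM in the right legs of C57BL/6. The legs did not overlap although the left ones spread widely (log2 change -2.37 ± 0.43, relative -2.89, adjusted p = 0.00169). In BALB/c the levels were 35.7, 56.998 and 72.5 RPKM in the left and 7.51, 33.3 and 11.3 RPKM in the right legs. Right library 2, at 33.3 RPKM, came close to the lowest left library. The log2 change was -1.86 ± 0.50 (relative -2.23, adjusted p = 0.0154), and -2.45 without that library. The call was lost in 3 of 18 alternatives, with no filter on low values (adjusted p = 0.113) and without left library 3 or right library 3 (adjusted p = 0.0545 and 0.0537).

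Gadd45g made up 62.8% ± 13.6 of the summed Gadd45 RPKM in the left legs of C57BL/6 and 1.46% ± 0.432 in the right legs. Gadd45a made up 11.2% ± 1.59 and 97.6% ± 0.593. In BALB/c the Gadd45g share was 66.7% ± 12.9 and 2.08% ± 1.46 and the Gadd45a share 8.55% ± 2.44 and 96.6% ± 1.73. The plot of family shares shows the same exchange in each of the 6 right libraries. The summed level went from 105 ± 44.3 to 818 ± 28.6 RPKM in C57BL/6 and from 81.0 ± 12.6 to 800.2 ± 160 RPKM in BALB/c.

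Cdkn1a encodes p21, the inhibitor of cyclin-dependent kinases, and showed, on the log2(RPKM + 0.5) scale, the largest rise of the set in C57BL/6, where the ratio of means was slightly higher for Runx1. Cdkn1a (NM_007669; mm9 chromosome 17, 29230714 to 29237667) had 4.89, 5.01 and 3.67 RPKM in the left and 770, 527 and 617 RPKM in the right legs of C57BL/6. In BALB/c it had 7.27, 8.76 and 14.9 RPKM in the left and 524, 492 and 685 RPKM in the right legs. The right legs of the strains overlapped, while every left library of BALB/c lay above every left one of C57BL/6, in tables that were scaled separately. The ratio of means was 141 in C57BL/6 (log2 change 6.98 ± 0.16, relative 6.46, adjusted p = 3.16e-07) and 55.1 in BALB/c (log2 change 5.76 ± 0.26, relative 5.39, adjusted p = 8.57e-06).

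**Figure D3:**
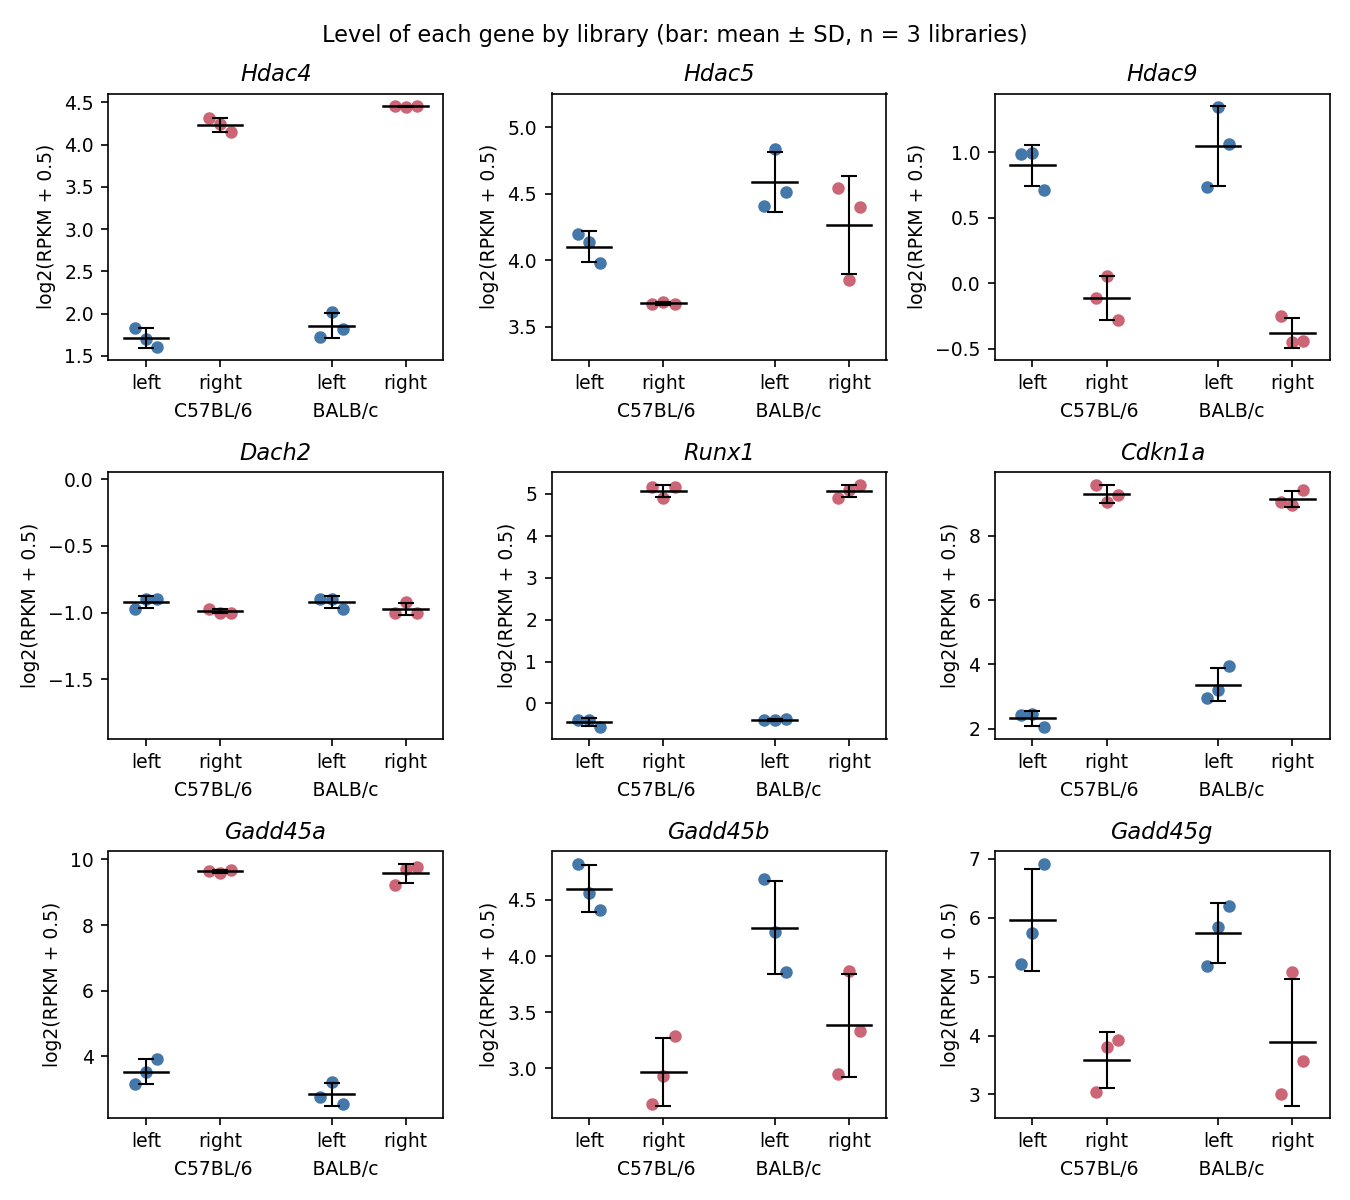
Level of each of the 9 genes on a log2(RPKM + 0.5) axis, 1 point per library, with bars for the mean ± SD of 3 libraries, by leg and strain. Hdac4, Runx1, Gadd45a and Cdkn1a are high in all 6 right libraries, the means of Hdac9, Gadd45b and Gadd45g are lower there, the legs of BALB/c overlap for Hdac5 and Gadd45b, and Dach2 stays near the bottom of the scale.

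The order of levels differed between the legs. In the left legs of C57BL/6 it ran Gadd45g, Gadd45b, Hdac5, Gadd45a, Cdkn1a, Hdac4, Hdac9, Runx1 and Dach2, and no neighbours in that order overlapped. In the right legs it ran Gadd45a, Cdkn1a, Runx1, Hdac4, Hdac5, Gadd45g, Gadd45b, Hdac9 and Dach2. There the library ranges of Hdac5 and Gadd45g, and of Gadd45g and Gadd45b, overlapped. The order in the right legs of BALB/c was the same, but Gadd45a and Cdkn1a also overlapped, as did Hdac4 and Hdac5. In the left legs of BALB/c Hdac5 came before Gadd45b and Cdkn1a before Gadd45a, and all neighbours from Hdac5 to Gadd45a in that order overlapped.

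By limma, 0 of 8 tested members were called for a difference between the strains in the change, where 6.09% of 14165 genes were called, 1.76% higher and 4.33% lower in BALB/c. At an unadjusted p under 0.05 it was 1 member, Cdkn1a, which limma-voom on recovered reads called. The rise of Cdkn1a was smaller in BALB/c by 1.22 ± 0.33 on the log2 scale (95% interval -1.95 to -0.49, adjusted p = 0.0529), and it was called in 7 of 23 alternatives (adjusted p 0.0225 to 0.146). For Gadd45a the difference, BALB/c minus C57BL/6, was 0.63 (-0.03 to 1.29, adjusted p = 0.224) and for Gadd45b 0.76 (-0.02 to 1.54, adjusted p = 0.218). The intervals of Hdac4 (-0.24 to 0.40) and Runx1 (-0.42 to 0.29) were narrow and included 0, while that of Gadd45g (-1.11 to 2.14) was wide. Hdac9 had a difference of -0.42 (-0.92 to 0.08) and Hdac5 of 0.11 (-0.41 to 0.62).

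Summed marker RNA of several cell types also differed between the legs. The endothelial sums overlapped between the legs in both strains, and the fibroblast and tendon sums did so in BALB/c. The tissue carried its labelled identity, as 8 of 8 muscle fibre markers were present in every library. Their summed level was 155262 to 168700 RPKM in the left and 74451 to 79662 RPKM in the right legs of C57BL/6, and 105719 to 146743 and 60784 to 85173 RPKM in BALB/c. Macrophage and monocyte markers summed to 9.77 to 13.4 RPKM in the left and 91.9 to 184 RPKM in the right legs of C57BL/6, where 10 of 10 rose. In BALB/c they summed to 62.8 to 107 and 186 to 300.009 RPKM, and 7 of 10 rose. After median-of-ratios rescaling 10 of 10 were higher in C57BL/6 and 5 of 10 in BALB/c, beside 28.2% and 21.8% of all tested genes. Satellite cell markers summed to 13.7 RPKM in each left library and 22.6 to 46.0 RPKM in the right legs of C57BL/6, with 4 of 7 tested called higher. In BALB/c the satellite cell sums were 14.8 to 19.2 and 35.6 to 51.6 RPKM, with 3 of 7 called higher. The satellite cell counts were near the shares of all tested genes called higher, 63.6% in C57BL/6 and 42.5% in BALB/c. Neutrophil and lymphocyte markers summed to 0.102 to 0.798 and 106 to 285 RPKM in C57BL/6 and to 0.782 to 1.42 and 39.9 to 341 RPKM in BALB/c. Nearly all of the C57BL/6 right-leg sum was S100a8, whose mean went from 0.182 ± 0.208 to 174 ± 95.4 RPKM. S100a9 went from 0.206 ± 0.273 to 1.12 ± 0.886 RPKM there. Means of the other markers were at most 0.0797 RPKM in that strain, and Ly6g, a neutrophil marker, was at 0 in all its libraries. Of these 10 markers, 2 were tested in C57BL/6, with 2 called higher, and 4 in BALB/c, with 1 called higher. The sums thus do not show a rise across the list. Fibroblast markers summed to 80.4 to 139 and 227 to 436 RPKM in the legs of C57BL/6 and to 450 to 725 and 539 to 706 RPKM in BALB/c. Tendon markers summed to 14.1 to 21.1 and 105 to 262 RPKM in C57BL/6 and to 142 to 293 and 213 to 258 RPKM in BALB/c. Endothelial markers summed to 58.0 to 70.8 and 57.6 to 70.9 RPKM in C57BL/6 and to 93.7 to 125 and 82.5 to 115 RPKM in BALB/c. The part of these cells in the changes of the 9 genes was not tested, and in whole muscle fewer cells of a type and less RNA per cell cannot be told apart.

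The related genes describe the pathways the members act in. Their counts stand beside 63.6% of all tested genes called higher and 8.56% lower in C57BL/6, and 42.5% and 7.67% in BALB/c. Counts after median-of-ratios rescaling stand beside 28.2% higher and 26.4% lower in C57BL/6, and 21.8% and 19% in BALB/c. Among the 15 tested MEF2 factors, myogenic factors and their denervation targets, 10 rose and 2 fell in each strain, with a median change of 1.66 in C57BL/6 and 1.32 in BALB/c. After rescaling 8 were higher in each strain, and 4 lower in C57BL/6 and 3 in BALB/c. Trim63, the ubiquitin ligase MuRF1, was called in C57BL/6 in opposite directions as deposited (0.35) and after rescaling (-0.37). Chrng and Chrnd, acetylcholine receptor subunits under the control of myogenin, had the largest changes of the list. Chrng rose from 0.0650 ± 0.0422 to 154 ± 4.78 RPKM in C57BL/6 (log2 change 8.10, adjusted p = 1.02e-08) and from 0.0577 ± 0.0769 to 102 ± 30.9 RPKM in BALB/c (log2 change 7.48, adjusted p = 1.70e-06). The 2 that fell were the glycolytic MEF2 targets Eno3 and Pfkm. Pfkm fell from 1226 ± 48.2 to 501 ± 12.3 RPKM in C57BL/6 and from 1197 ± 53.9 to 402 ± 39.4 RPKM in BALB/c.

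Among 11 tested kinases that act on class IIa deacetylases, 6 rose and 3 fell in C57BL/6, and 3 rose and 2 fell in BALB/c, shares of rises below those of all genes. After rescaling 3 were higher and 4 lower in C57BL/6 and 2 higher and 6 lower in BALB/c. Sik1, a salt-inducible kinase, rose most. It went from 1.52 ± 0.511 to 25.5 ± 5.78 RPKM in C57BL/6 (log2 change 3.69, adjusted p = 7.56e-06) and from 4.77 ± 3.20 to 45.4 ± 18.4 RPKM in BALB/c (log2 change 3.28, adjusted p = 0.00156). The isoforms of calcium/calmodulin-dependent kinase II divided. Camk2a fell from 159 ± 7.10 to 18.2 ± 1.79 RPKM in C57BL/6 (log2 change -3.10, adjusted p = 5.41e-07) and from 116 ± 18.1 to 12.8 ± 2.47 RPKM in BALB/c (log2 change -3.14, adjusted p = 2.41e-05). Camk2d rose from 5.04 ± 0.810 to 26.9 ± 4.43 RPKM and from 4.62 ± 1.2 to 24.0 ± 5.23 RPKM. Camk2g fell by 0.27 in C57BL/6 and by 0.46 in BALB/c on the log2 scale.

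The other deacetylases and their corepressors had changes around that of the median gene. Of 10 tested, 5 rose in C57BL/6 and 4 in BALB/c and 0 fell by limma, at an unadjusted p or by limma-voom, but after rescaling 2 were higher and 5 lower in C57BL/6 and 1 higher and 2 lower in BALB/c. The median change was 0.41 in C57BL/6 and 0.40 in BALB/c. Hdac6, a cytoplasmic deacetylase of tubulin, was called higher under both scalings in both strains, with 1.93 ± 0.0915 and 5.20 ± 0.458 RPKM in C57BL/6. Hdac11 rose from 3.73 ± 0.180 to 10.04 ± 0.350 RPKM in C57BL/6 and from 4.55 ± 0.571 to 7.77 ± 0.445 RPKM in BALB/c.

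The genes of the network of Dach1, Six2 and Eya1, which act with Dach proteins on muscle genes, divided as well. In C57BL/6 6 of 9 rose and 3 fell, and in BALB/c 3 rose and 2 fell. After rescaling 2 were higher and 3 lower in C57BL/6 and 0 higher (1 at an unadjusted p) and 3 lower in BALB/c. Dach1, the relative of Dach2, fell from 0.496 ± 0.0785 to 0.275 ± 0.0465 RPKM in C57BL/6 (adjusted p = 0.0174) and from 0.647 ± 0.112 to 0.278 ± 0.0893 RPKM in BALB/c (adjusted p = 0.0148). Six2 fell from 26.0 ± 4.95 to 4.31 ± 1.42 RPKM in C57BL/6 (log2 change -2.49, adjusted p = 5.49e-05), and in BALB/c it had 14.8 ± 8.48 and 5.20 ± 3.02 RPKM with overlapping legs, not called as deposited (adjusted p = 0.0789) and called lower after rescaling (adjusted p = 0.0373). Eya1 fell in both strains, and Eya4 rose in both before rescaling. Eya3 rose by 1.27 on the log2 scale in C57BL/6 and was not called in BALB/c (0.46, adjusted p = 0.0993), and Six5 rose by 1.22 and 0.68. The difference between the strains in the change was not called for Six2 (adjusted p = 0.338) or Eya3 (adjusted p = 0.0582).

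The family and partners of Runx1 changed far less than Runx1. Of 8 tested, 6 were called higher in C57BL/6 and 3 in BALB/c, and 0 lower. At an unadjusted p under 0.05, 0 were lower by limma and 1 by limma-voom in C57BL/6. After rescaling 0 were called higher by limma in either strain, with 1 in each at an unadjusted p, and 2 were lower in C57BL/6 and 0 in BALB/c. Runx1t1, a corepressor of Runx targets, went from 0.156 ± 0.0412 to 0.503 ± 0.145 RPKM in C57BL/6 and from 0.206 ± 0.0537 to 0.813 ± 0.449 RPKM in BALB/c. Cbfa2t2, of the same corepressor family, rose by 0.59 and 0.53 on the log2 scale, and Tle3, a Groucho corepressor, by 0.67 in C57BL/6, while in BALB/c it was not called (0.31, adjusted p = 0.348), and neither was its strain difference (adjusted p = 0.484).

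The list of Gadd45 partners holds stress MAP kinases with Gadd45gip1, the stress factor Atf4 and DNA demethylation genes. Its median change was -0.08 in C57BL/6 and -0.20 in BALB/c. Of 16 tested, 5 rose and 4 fell in C57BL/6 and 1 rose and 4 fell in BALB/c. After rescaling 12 were lower in C57BL/6 and 10 in BALB/c, with 1 higher in each. Over all tested genes 26.4% and 19% were lower after rescaling. Among the rises in C57BL/6, those of the kinases Mapk8 (0.31) and Mapk12 (0.41) turned to called falls after rescaling (-0.33 and -0.30). Map2k6 and Map2k3, which activate p38, and Mapk14, which encodes p38α, fell in both strains. Map2k6 went from 12.5 ± 1.06 to 3.49 ± 0.901 RPKM in C57BL/6 (log2 change -1.73, adjusted p = 6.29e-05) and from 12.9 ± 2.04 to 1.69 ± 0.637 RPKM in BALB/c (log2 change -2.65, adjusted p = 1.28e-04). Mapk14 went from 34.7 ± 2.57 to 19.7 ± 0.411 RPKM and from 38.1 ± 0.816 to 19.9 ± 0.914 RPKM. Gadd45gip1, a mitochondrial protein that binds Gadd45 proteins, rose in both strains as deposited, from 61.0 ± 5.64 to 109 ± 14.9 RPKM in C57BL/6, but was not called there after rescaling. Tet2, a DNA demethylation enzyme, rose by 0.91 on the log2 scale in C57BL/6 and was not called in BALB/c (0.23, adjusted p = 0.483), nor for a difference between the strains (adjusted p = 0.181).

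Cdkn1a and Gadd45a are also known as targets of p53. Of 16 tested p53 list genes, 12 rose and 1 fell in C57BL/6 and 10 rose and 1 fell in BALB/c, with medians of 1.25 and 1.06, beside 63.6% and 42.5% of all tested genes called higher. After rescaling 10 and 7 were higher and 4 and 2 lower. Eda2r, a death receptor, rose from 2.55 ± 0.748 to 41.3 ± 6.25 RPKM in C57BL/6 (log2 change 3.79, adjusted p = 4.46e-06) and from 1.34 ± 0.371 to 32.0 ± 7.68 RPKM in BALB/c (log2 change 4.14, adjusted p = 1.58e-05). Bbc3, a pro-apoptotic BH3-only gene, rose from 0.700 ± 0.140 to 6.23 ± 0.385 RPKM and from 0.831 ± 0.0465 to 15.1 ± 5.14 RPKM. Perp rose from 0.477 ± 0.225 to 1.75 ± 0.742 RPKM in C57BL/6 and from 0.546 ± 0.167 to 14.7 ± 4.96 RPKM in BALB/c. Ccng1, which encodes cyclin G1, was the gene that fell in both strains, from 180 ± 2.94 to 128 ± 21.04 RPKM and from 178 ± 12.2 to 117 ± 24.1 RPKM.

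Among cell cycle inhibitors, Cdkn1a was joined by Cdkn1c, which changed less. Of the other CDK inhibitors, cyclins and kinases, 7 of 14 rose in C57BL/6 and 7 of 15 in BALB/c. By limma 0 fell, while 1 in BALB/c was lower at an unadjusted p and by limma-voom. After rescaling 5 and 4 were higher and 3 and 2 lower. Cdkn1c, which encodes the inhibitor p57, rose from 21.5 ± 5.44 to 102 ± 42.3 RPKM in C57BL/6 (log2 change 2.17, adjusted p = 3.44e-04) and from 15.98 ± 3.91 to 280 ± 63.7 RPKM in BALB/c (log2 change 4.09, adjusted p = 1.81e-05). Cdkn1b, chosen after its values were seen as the remaining gene of that family, had 15.6 ± 1.42 and 15.7 ± 1.19 RPKM in C57BL/6 and was not called as deposited, but after rescaling it was called lower in C57BL/6 (-0.69, adjusted p = 4.29e-04) and BALB/c (-0.58, adjusted p = 0.0231). Ccnd3, a D-type cyclin, rose from 8.19 ± 0.117 to 26.1 ± 0.917 RPKM and from 12.1 ± 1.90 to 26.7 ± 2.10 RPKM. The kinase gene Cdk4 rose from 17.3 ± 2.41 to 31.4 ± 3.51 RPKM in C57BL/6, where it was not called after rescaling (adjusted p = 0.355). In BALB/c it rose from 23.1 ± 2.36 to 53.1 ± 3.49 RPKM (log2 change 1.18, adjusted p = 2.33e-04).

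**Figure D4:**
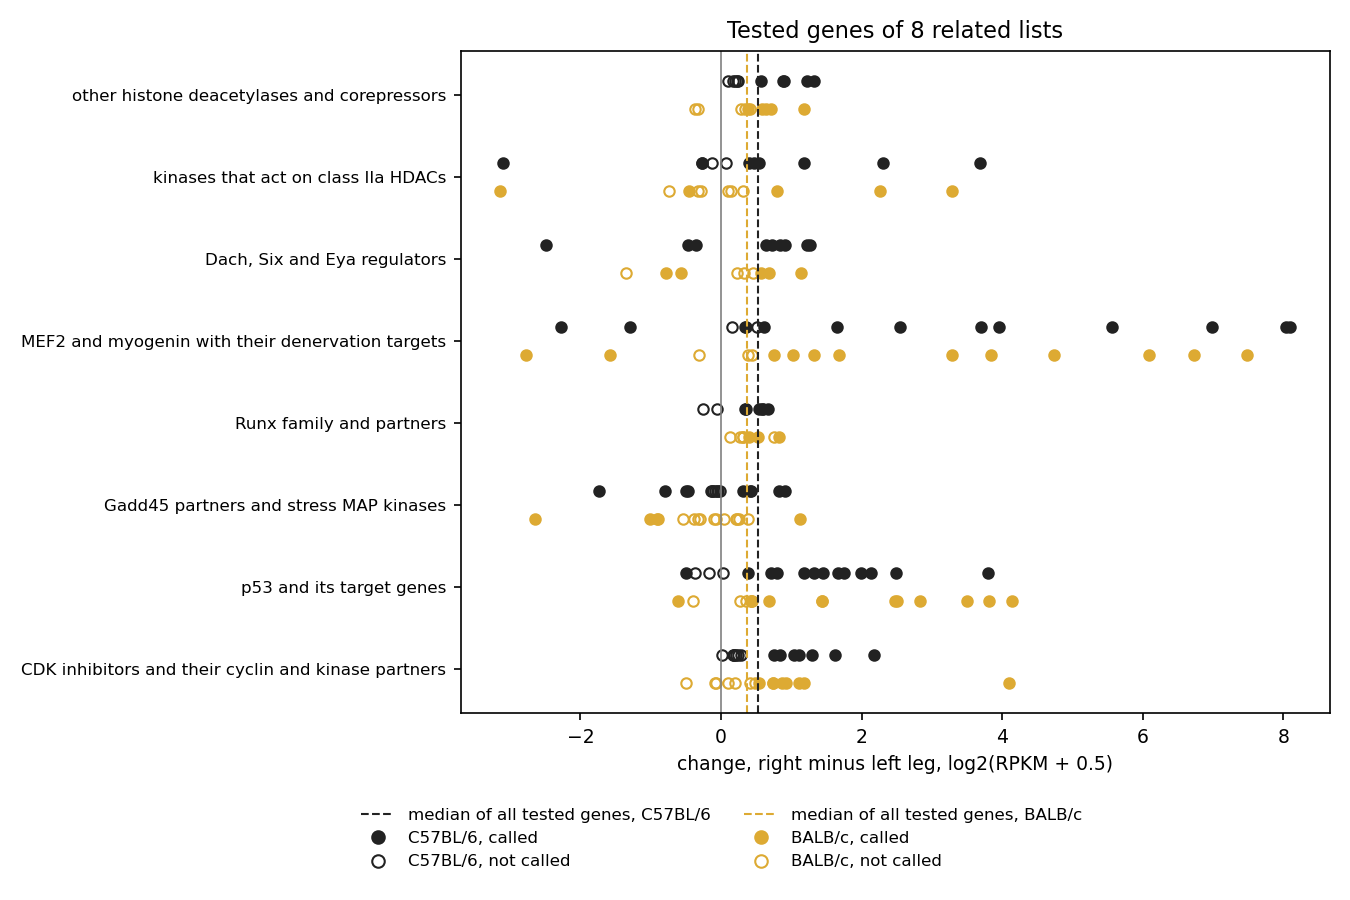
Change of each tested gene of 8 related lists, right minus left leg, on the log2(RPKM + 0.5) axis, for C57BL/6 (dark) and BALB/c (gold); filled points were called, open points not, and dashed lines mark the medians of all tested genes, 0.52 and 0.38. The lists of MEF2 and myogenin targets and of p53 targets reach far right of the medians, while the Runx partners sit around them.

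For each member above 1 RPKM on average in both strains, the genes with the nearest profile were sought among 10217 genes over the 12 libraries, as the Euclidean distance of log2(RPKM + 0.5) after subtracting the left mean of the own strain. The nearest to Cdkn1a was Mymk, the fusion protein myomaker, at a distance of 1.03, then Aif1l at 1.198. The nearest to Gadd45a were E230016M11Rik, the gene that overlaps it, at 1.61, and Mymx, the fusion peptide myomixer, at 1.79. Runx1 lay nearest to Ttc9 (0.980) and Kcnk5 (0.981), and Hdac4 to Mvp (0.386) and Tec (0.538). Hdac5 lay nearest to Synpo (0.238) and Zfp91 (0.342), and Gadd45b to Cmss1 (0.898) and Bpgm (1.11). Gadd45g lay nearest to Apobec2 (1.87) and to Ldha (1.94), which encodes a lactate dehydrogenase subunit of glycolytic muscle. Distances grow with the size and spread of a change and do not rank the members. Hdac9 and Dach2 were too low for this comparison.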

How the data were processed

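The authors deposited RPKM values in 1 table per strain; per the file headers, HOMER's analyzeRepeats counted reads of both strands in exons of its mm9 annotation, kept 1 transcript per gene, and was asked for RPKM, although the column names say FPKM. Per the submitters' processing notes, the tools included HISAT2, HOMER and DESeq2 and the builds GRCm38 and mm10, without roles. The build used for alignment was not given in the sources used here. Every sample column was used (0 columns without a sample). Because each table had its own normalization, every test of the legs stayed within a strain and strains were tested against each other only in their changes. Levels set side by side across strains come from separately scaled tables.

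Whole reads were recovered from RPKM, transcript length and the scaling total for 99.8% to 99.9% of values, within 0.1 read. The scaling totals were 18132620 to 19282880 reads, of which 14826934 to 17323385 lay in listed genes; 3 reads in a library were taken as the floor. No 2 libraries of a group were identical (0 of 12 pairs).

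Values were transformed to log2(RPKM + 0.5), genes whose mean reached 0.1 RPKM were kept, and right was compared with left by limma 3.58.1 in R 4.3.3 (eBayes with a trend, two-sided, Benjamini-Hochberg adjustment over all tested genes, called under 0.05). The strain difference was the contrast of the changes in 1 fit over 12 libraries. Scripts were tested on simulated data. The members and lists were chosen with earlier results of these data known. Besides the 9 members, up to 2 called genes per direction with the largest change were named by rule, per list and strain. Where none was called, the rule took the tested gene with the highest mean. It also took the 2 nearest genes per member. Named outside the rule were Hdac7, Trim63, Mapk8, Mapk12, Cdkn1b, genes overlapping members, single cell type markers and further genes with a called strain difference.

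Every result was recomputed with a pseudocount of 0.1 or 1 and with the filter dropped or raised to 1 RPKM. Values were rescaled by quantiles, to TPM or by median-of-ratios factors. The model was refitted with a replicate block, without the eBayes trend, with the spread of all 12 libraries pooled, by limma-voom on recovered reads (10627 genes called in C57BL/6 and 7581 in BALB/c), and without each library in turn.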

Additional observations from a re-analysis of the deposited data

Results flagged for a closer look

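Of 99 tested genes of the related lists, 10 had a change that differed between the strains, 6 higher and 4 lower in BALB/c. Over all 14165 tested genes 6.09% were called, 1.76% higher and 4.33% lower in BALB/c, so the lower calls were near the share of all genes. The test was the limma interaction over all 12 libraries (BALB/c change minus C57BL/6 change, Benjamini-Hochberg adjusted over the 14165 genes). Perp, a p53 target at cell junctions, rose more in BALB/c by 2.63 on the log2 scale (adjusted p = 0.00458), with right-leg levels of 9.55 to 19.5 RPKM in BALB/c and 1.195 to 2.60 RPKM in C57BL/6, and was called in 23 of 23 alternatives (adjusted p 0.00199 to 0.0365). Cdkn1c, the CDK inhibitor p57, rose more in BALB/c by 1.92 (adjusted p = 0.0190; 20 of 23 alternatives, 0.00738 to 0.0718), whereas the rise of Cdkn1a was, without a call, smaller there. Bbc3 rose more in BALB/c by 1.01 (adjusted p = 0.0455), a call kept in 9 of 23 alternatives (0.0169 to 0.205). The change of Hdac11 in BALB/c was lower by 0.60 (difference -0.60, adjusted p = 0.0361), a call kept in 9 of 23 alternatives (0.0146 to 0.156). These 4 genes were named by the rule for the lists, and the other 6 are named because of this result. Phlda3, a p53 target, rose more in BALB/c by 1.18 (adjusted p = 0.00319, called in 23 of 23 alternatives), Trim63 by 0.97 (0.0162, 22 of 23) and Mdm2, the ubiquitin ligase of p53, by 0.72 (0.0468, 9 of 23). The change was lower in BALB/c for Mef2a (-0.90, adjusted p = 0.0392, 11 of 23), Map3k5 (-0.88, 0.0424, 11 of 23) and Plk2 (-1.24, 0.0495, 9 of 23).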

How the results depend on the processing

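The 4 rises were called in all 18 alternatives run in each strain, and so were the 4 falls of C57BL/6 (17 alternatives for Hdac9, which a filter of 1 RPKM removes). In BALB/c, Hdac5 was called in 3 of 18 alternatives, the 2 rescalings by median-of-ratios (-0.84, alone or with the replicate block) and the one by quantiles (-0.95), and the number of members called lower, 3 as deposited, was 1 with no filter on low values and 1 to 3 when 1 library was left out, 1 being without right library 3. Leaving out 1 library gave 9712 to 10289 called genes in C57BL/6 and 5943 to 7839 in BALB/c. The strain difference had 862 called genes, 498 with no filter and 307 to 1306 when 1 library was left out, the lowest without C57BL/6 right library 3 and the highest without BALB/c left library 1. Of its members, 1 (Cdkn1a) was called lower, against 0, with a pseudocount of 0.1, a filter of 1 RPKM, TPM, the replicate block, the replicate block with median-of-ratios rescaling and limma-voom, and 0 to 1 were called when 1 library was left out, 1 being without BALB/c left library 1. The cause was not tested. The labels do not say whether replicate numbers pair the legs, and correlations of deviations from the group means did not settle it. Same-numbered legs correlated at 0.117, 0.0597 and 0.0335 in C57BL/6 and 0.0301, 0.0542 and 0.202 in BALB/c. That is 6 of 6 positive against 3 of 12 with other numbers, but not every library correlated best with its own number. Deviations cancel within a group, so positive values at the same number push the others to negative ones, and these counts are not independent. With the replicate block 10361 genes were called in C57BL/6 (10504 without), 6840 in BALB/c (7438) and 754 (862) for the difference, Six2 was called lower in BALB/c (adjusted p = 0.00366, against 0.0789), and the calls of Cbfa2t2 in BALB/c (0.0635) and of the strain differences of Hdac11 (0.0830) and Bbc3 (0.0547) were lost. The block with median-of-ratios rescaling was added after seeing the data. TPM split the BALB/c calls into 3941 higher and 1240 lower, against 6302 and 1136 as deposited, and median-of-ratios rescaling into 3225 and 2818. It split those of C57BL/6 into 4106 and 3840, against 9258 and 1246. Among members and genes named by rule, signs turned as follows. Cbfa2t2 in C57BL/6 was -0.074 under quantiles. In BALB/c, Eya3 was -0.000836 after median-of-ratios rescaling with or without the block, Tle3 was -0.10 under both of these and -0.066 under quantiles, and Tet2 was -0.16 under both and -0.12 under quantiles. The strain difference of Hdac4 was -0.12 and that of Hdac5 -0.10 with TPM, and that of Hdac5 ran from -0.035, without BALB/c right library 1, to 0.31 when 1 library was left out. That of Runx1 was 0.058 after median-of-ratios rescaling with or without the block, 0.024 under quantiles and -0.15 to 0.013 when 1 library was left out, the highest without BALB/c right library 1, and that of Gadd45g was -0.084, without BALB/c right library 2, to 0.95. Depth limited Dach2, with 0 to 4 reads per library.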
